A study of Mus musculus with 3 samples.

Results

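Amino acid transporters were followed across the germ layers of the mouse gastrula. The genes were chosen by symbol alone, as all those that begin with Slc1a, Slc3a, Slc6a, Slc7a, Slc36a, Slc38a or Slc43a followed by a number, a rule that uses no measured value, although the families were taken up with earlier results of these data known. The rule matched 63 symbols and 125 probe sets, a probe set being a group of short probes against the same transcript. Of these symbols, 3 are genes on the opposite strand that carry the transporter's name with the ending os, which left 60 transporter genes with 121 probe sets among the 18193 named genes of the array. Expression was measured at embryonic day 7.5 (E7.5) in endoderm, mesoderm and epiblast dissected from embryos of the ICR strain. Per the study's methods the layers were separated by hand from the embryonic region after enzyme treatment. The study describes epiblast as neuroectoderm and primitive streak for its sequencing samples, and the makeup of the epiblast on the array is not stated separately. There was 1 Affymetrix whole-genome expression array for each layer. Without replicates no p-value can be given, and none of the differences could be checked against a second sample. The sources used here do not give the number of embryos behind an array.

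Cells cannot take up most amino acids without carrier proteins, and these families supply them. The Slc1a family carries glutamate or exchanges small neutral amino acids. Slc7a proteins are either transporters of arginine and lysine or light chains that reach the membrane only when bound to a heavy chain of the Slc3a family. The Slc6a family uses sodium and chloride to move neurotransmitters, osmolytes and neutral amino acids, the Slc36a family is coupled to protons, the Slc38a family carries glutamine and other neutral amino acids with sodium, and Slc43a proteins let large neutral amino acids pass down their gradient. In absorptive epithelia such as kidney, gut and yolk sac, different members sit on the apical side, on the basolateral side and in the lysosome.

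The promoters of the light chain genes Slc7a9 and Slc7a7 and of the mesoderm-dominant gene Slc38a4 show what sequence lay next to genes that differed strongly between layers. RefSeq promoters of 300 bases, from 250 before to 50 after a start site, were matched for 14 of the 16 transporter genes that differed 2-fold or more. They are written 5′ to 3′ on the gene's strand, and capitals mark the letters AGATAA, a motif of GATA factors, or TGATGNAA, the core of the C/EBP-ATF response element, on either strand. Each gene has further start sites in RefSeq, and which of them was used in these layers was not measured. The Slc7a9 window lies at chr7:35448842-35449141 (GRCm38.p6, plus strand), that of Slc7a7 at chr14:54417895-54418194 and that of Slc38a4 at chr15:97055907-97056206 (both minus strand).
Slc7a9: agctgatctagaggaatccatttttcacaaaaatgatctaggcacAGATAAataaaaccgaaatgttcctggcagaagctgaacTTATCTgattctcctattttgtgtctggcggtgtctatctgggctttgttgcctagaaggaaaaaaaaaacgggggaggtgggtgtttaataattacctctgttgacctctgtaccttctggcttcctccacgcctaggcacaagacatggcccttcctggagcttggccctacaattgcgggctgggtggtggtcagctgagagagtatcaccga
Slc7a7: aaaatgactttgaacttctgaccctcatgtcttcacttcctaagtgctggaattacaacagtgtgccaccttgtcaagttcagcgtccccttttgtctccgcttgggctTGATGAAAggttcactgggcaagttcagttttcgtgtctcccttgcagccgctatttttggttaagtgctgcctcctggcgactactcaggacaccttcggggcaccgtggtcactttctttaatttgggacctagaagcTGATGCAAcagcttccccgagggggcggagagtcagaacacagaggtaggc
Slc38a4: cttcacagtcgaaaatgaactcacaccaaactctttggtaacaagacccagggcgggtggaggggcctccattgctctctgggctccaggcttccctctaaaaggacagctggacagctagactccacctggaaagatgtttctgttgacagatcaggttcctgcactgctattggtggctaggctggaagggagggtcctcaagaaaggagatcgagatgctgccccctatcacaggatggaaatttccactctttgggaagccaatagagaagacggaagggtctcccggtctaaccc
The Slc7a9 window held the GATA letters at 2 places and the Slc7a7 window held TGATGNAA at 2 places, and the capitals do not overlap. The Slc38a4 window held neither, nor GTTAAT (part of the HNF1 motif) or CAAAGTCCA (core of the HNF4A motif). The window printed is the first listed for each gene, and the contrast depends on that choice. Another Slc38a4 window held AGATAA at 1 place, and the other Slc7a9 window held none of these motifs. Of 32851 promoters of that length, 11.2% held AGATAA, 3.97% TGATGNAA, 7.10% GTTAAT and 0.475% CAAAGTCCA. Of the 11 transporter genes higher in endoderm than in epiblast, with 17 partly overlapping promoter windows among them, 2 held AGATAA in some window (Slc7a7 and Slc7a9), 1 held TGATGNAA (Slc7a7), 2 held GTTAAT and 0 held CAAAGTCCA. Genes with several windows have more chances of a match, so these gene counts are not set against the shares over all promoters.

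A difference was counted where it was 2-fold or more (a log2 difference of 1) and the gene's highest intensity exceeded 80.6. This limit, called the floor, is the median over all probe sets and arrays. A gene was represented by its brightest probe set, judged by mean log2 intensity. Where the lower value was below the floor the fold is given as "at least", computed against the floor. Of the 60 genes, 38 lay above the floor in at least 1 layer and 22 lay below it in all, at 2.91 to 76.7. Of the 38, 16 (42.1%) were 2-fold or more apart between some pair of layers, where 21.5% of the 12785 genes above the floor were. Below, triplets of intensities run from endoderm through mesoderm to epiblast. Intensities of different genes depend on their probes and are not compared with each other.

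Most of the transporters that differed were highest in endoderm. Relative to epiblast, 11 of the 38 (28.9%) were higher in endoderm, against 12.5% of all genes, and 4 (10.5%) were lower, against 4.01%. Relative to mesoderm, 12 (31.6%) were higher in endoderm, against 11.4%, and only Slc38a4 was lower, against 3.86%. Between mesoderm and epiblast, 1 was higher in mesoderm (background 3.44%) and 2 were lower (3.25%). The comparisons share arrays and are not independent. A gene was called dominant where it was 2-fold or more above both other layers. That held for 11 in endoderm (28.9%, background 8.89%), 1 in mesoderm (2.63%, background 1.49%) and 2 in epiblast (5.26%, background 1.18%).

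The median transporter was level between layers. The median log2 difference of the 38 genes was 0.00 for endoderm minus epiblast, 0.04 for endoderm minus mesoderm and -0.11 for mesoderm minus epiblast, beside 0.05, 0.07 and -0.02 for all genes. The upper quartile for endoderm minus epiblast was 1.14 for the transporters and 0.50 for all genes. The lower quartile was -0.35 beside -0.25, so the transporters spread wider on both sides, and more so above. With the floor raised to 286, the upper quartile of all values, 18 transporters remained and their median for endoderm minus epiblast was 0.96, beside 0.17 for all genes. The floor acts on the highest layer and keeps genes bright in a single layer, such as Slc7a9 in endoderm or Slc7a3 in epiblast. The raised floor thus selects partly on the layer differences themselves, and no shift of the families is read from this median. Arrays centred on their median over genes above the floor moved the median of all genes for endoderm minus epiblast from 0.05 to -0.25. The split of 11 higher and 4 lower (73.3% higher) then became 7 and 5 (58.3%), and that against mesoderm, 12 and 1 (92.3%), became 9 and 3. Over all genes, 75.7% of the calls against epiblast were higher in endoderm and 54.8% after centring, and 74.7% and 58.4% of those against mesoderm, so against epiblast the transporters' split lay near that of all genes under both scalings.

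**Figure D1:**
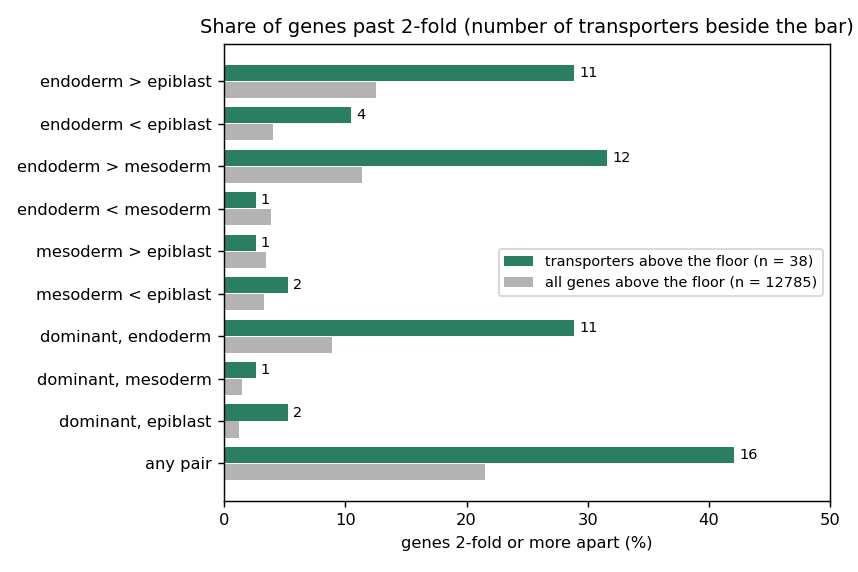
Percentage of genes 2-fold or more apart for each pair of layers, dominant in each layer, or apart in any pair, for the 38 transporters above the floor (green) and all 12785 genes above the floor (grey), 1 array per layer. The number of transporters stands beside each bar, and among the bars for a single direction the widest gaps are those for higher or dominant in endoderm, with 11, 12 and 11 transporters.

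**Figure D2:**
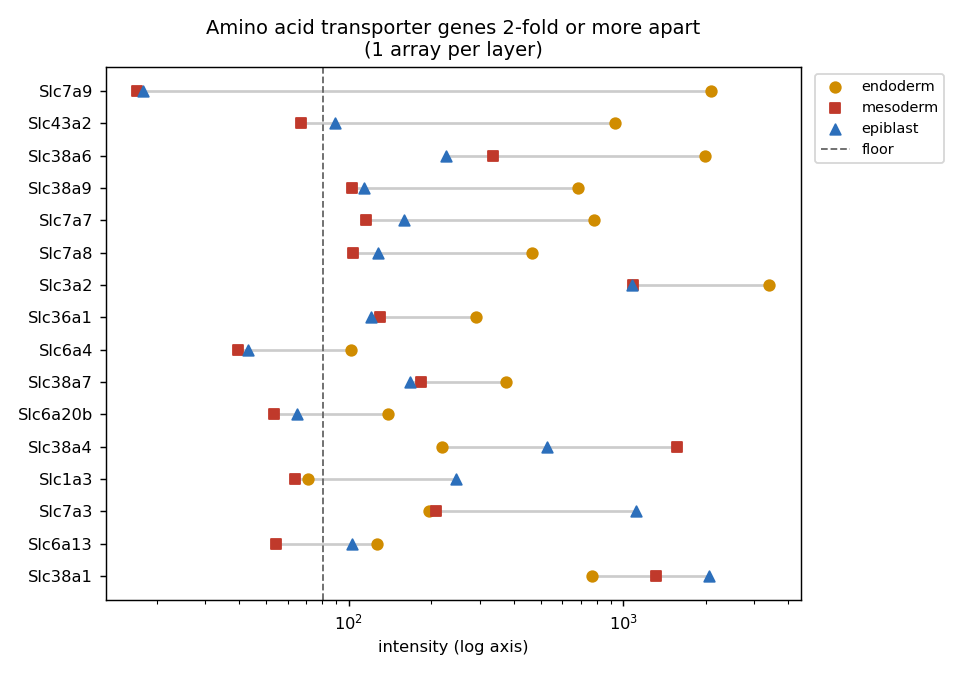
Intensity on a log axis for the 16 transporter genes 2-fold or more apart, with 1 point per layer from its single array and a dashed line at the floor (80.6). Endoderm is the rightmost point for the first 11 genes, mesoderm for Slc38a4 and epiblast for Slc1a3, Slc7a3 and Slc38a1.

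The heavy chain Slc3a2 and its light chains Slc7a7 and Slc7a8 were highest in endoderm. Slc3a2, the heavy chain 4F2hc (CD98), was 3407, 1088 and 1075, which is 3.13-fold above mesoderm and 3.17-fold above epiblast. Slc7a7, the light chain y+LAT1 that exports arginine and lysine in exchange for neutral amino acids, was 786, 116 and 159, or 6.76-fold and 4.94-fold higher in endoderm. Its other probe set read 1390, 74.0 and 116, at least 17.2-fold above mesoderm and 11.9-fold above epiblast, so its direction was the same and its size differed. Slc7a8, the light chain LAT2 for neutral amino acids, was 465, 104 and 128, 4.46-fold and 3.65-fold higher. The differences of Slc3a2 and Slc7a8 each rest on a single probe set.

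The light chains Slc7a5 and Slc7a6 were within 2-fold. Slc7a5, the light chain LAT1 for large neutral amino acids, was highest in endoderm at 1023, 548 and 638, 1.87-fold above mesoderm and just outside the limit. Slc7a6 (y+LAT2) was highest in mesoderm at 665, 933 and 718. Slc7a10 and Slc7a11, the latter the cystine-glutamate exchanger xCT, were below the floor in all layers, Slc7a11 at 72.0, 69.9 and 67.2. Slc7a6os, the opposite-strand gene at the Slc7a6 locus, was also within 2-fold on both of its probe sets, at 272, 263 and 180 and at 219, 309 and 248, and the other opposite-strand genes, Slc36a1os and Slc6a19os, were below the floor.

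Slc7a9 had the widest difference of the transporters. It encodes the light chain b0,+AT, which takes up cystine and basic amino acids across the apical membrane of kidney and gut epithelium. Its single probe set read 2094, 17.0 and 17.8, so that endoderm was at least 26.0-fold above each of the other layers. Its known heavy chain, Slc3a1 (rBAT), was below the floor on its only probe set, at 41.5, 49.6 and 52.9, and showed no excess in endoderm. Slc7a13, another light chain, was below the floor as well, at 42.9, 58.0 and 54.9. With 1 probe set and no background measure, a value below the floor bounds the Slc3a1 signal and does not show that the transcript was absent.

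**Figure D3:**
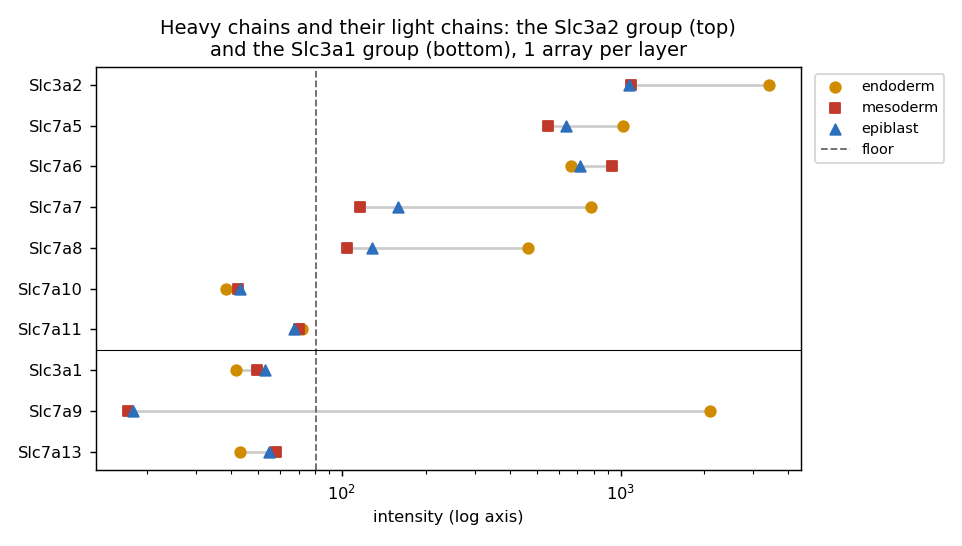
Intensity on a log axis for the heavy chain Slc3a2 with light chains Slc7a5, Slc7a6, Slc7a7, Slc7a8, Slc7a10 and Slc7a11 (above the line) and for Slc3a1 with Slc7a9 and Slc7a13 (below it), 1 array per layer, floor dashed. Slc7a9 reaches 2094 in endoderm while Slc3a1 stays between 41.5 and 52.9 in all layers.

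Carriers that release amino acids at the basolateral side of epithelia were mostly highest in endoderm. In the list of 7 basolateral genes, all above the floor, 5 were higher in endoderm than in both other layers and 0 were lower, with medians of 1.87 against epiblast and 2.16 against mesoderm, where 8.89% of all genes were dominant in endoderm. Besides Slc3a2, Slc7a7 and Slc7a8 these were Slc43a2 and Slc16a10. Slc43a2, the facilitator LAT4, was 936, 66.8 and 89.3, at least 11.6-fold above mesoderm and 10.5-fold above epiblast. Its second probe set above the floor read 401, 103 and 101 (3.89-fold and 3.96-fold), and the remaining one, below the floor, read 61.2, 14.4 and 19.5. Slc16a10, the aromatic amino acid carrier TAT1 and no member of these families, was 882, 120 and 185. Slc38a3, a glutamine transporter, was level at 222, 187 and 214.

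Of 15 genes listed for apical uptake, 8 lay above the floor, 3 of them higher in endoderm than in epiblast (12.5% of all genes) and 0 lower, with a median of -0.21. The 3 were Slc7a9, Slc36a1 and Slc6a20b. Whether the apical and basolateral lists differ was not tested. Slc6a20b was 139, 53.7 and 64.6, at least 1.73-fold above both layers, and its other probe set read 91.8, 29.1 and 29.5. Its close copy Slc6a20a was below the floor at 6.76, 5.11 and 2.91, and cross-hybridisation between such copies was not tested. The brush-border carriers of neutral amino acids Slc6a18 and Slc6a19 were below the floor, Slc6a19 at 45.8, 49.3 and 51.5. Cltrn (collectrin), the protein that brings Slc6a19 to the surface of kidney cells, was just below the floor at 78.3, 23.8 and 17.0. Anpep, an aminopeptidase of the brush border, was highest in mesoderm at 33.1, 129 and 42.5.

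Slc38a9, Slc36a1 and Slc38a7, which are known from the lysosome, where amino acids from degraded protein are released, were highest in endoderm. They were named for their own differences, no list of lysosomal transporters was counted, and Slc36a4 and Slc7a14, also described there, were within 2-fold and below the floor. Slc38a9, the lysosomal arginine sensor of the mTORC1 growth pathway, was 683, 103 and 114, or 6.66-fold above mesoderm and 5.97-fold above epiblast. All 6 of its probe sets above the floor were higher in endoderm than in epiblast, by 1.24 to 3.02 on the log2 scale, and higher than in mesoderm by 1.14 to 2.80. Leaving out probe sets of the kinds that can match several transcripts put its difference at 1.24 and 1.14, the low end of that range. A different probe set was then the brightest and stood for the gene. The sets that were kept still ran from 1.24 to 3.02 against epiblast and from 1.14 to 2.80 against mesoderm. Slc36a1, a proton-coupled carrier of small amino acids, was 291, 130 and 121, which is 2.24-fold and 2.41-fold higher. Slc38a7, a lysosomal glutamine exporter, was 373, 183 and 168, and at 2.04-fold over mesoderm it lay just inside the limit. With arrays centred on the median or quantile-normalized, Slc36a1 and Slc38a7 were no longer dominant in endoderm. Both of these genes were read on a single probe set.

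Slc38a6, a further member of the sodium-coupled family, was 1992, 336 and 227, 5.92-fold above mesoderm and 8.79-fold above epiblast. Its second probe set was below the floor at 43.8, 38.3 and 26.0, so the difference rests on a single probe set. Slc38a10 was highest in endoderm at 861, 489 and 503, within 2-fold. Of its 5 probe sets above the floor, 4 were higher in endoderm than in epiblast and 1 was lower, at 345, 355 and 398.

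Both neurotransmitter carriers that passed the limit were dim. Slc6a4, the serotonin transporter, was 102, 39.6 and 43.1, at least 1.26-fold higher in endoderm. Slc6a13, a transporter of GABA and taurine, was 127, 54.3 and 103, so that endoderm exceeded mesoderm by at least 1.58-fold and was level with epiblast. When dim values were set to the floor, Slc6a4, Slc6a13 and Slc6a20b no longer passed the 2-fold limit, and 13 of the 16 genes did. Those 13 were among 38 transporters above the floor, where 18.8% of all genes above it passed.

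Slc38a4 was the only transporter dominant in mesoderm. It encodes a transporter of neutral amino acids and is an imprinted gene read from the paternal copy. It was 218, 1574 and 527, which put mesoderm 7.23-fold above endoderm and 2.99-fold above epiblast. The other probe set read 178, 1010 and 325, with the same order of layers. Its log2 excess of mesoderm over epiblast was 1.58 and 1.63 on the probe sets, a gap well under the 0.27 (pooled SD) by which probe sets of the same gene differed for that pair of layers. Slc6a6, the taurine transporter, was also highest in mesoderm at 2053, 2910 and 1533, 1.90-fold above epiblast and so just outside the limit. Its second probe set read 480, 814 and 374, with mesoderm 2.17-fold above epiblast and so past the limit. A further set near the floor read 78.2, 84.2 and 82.7, and the last, below the floor, read 69.3, 77.9 and 73.8.

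Slc7a3 and Slc1a3 were dominant in epiblast, and Slc38a1 was highest there without being dominant. Slc7a3, the transporter CAT3 for arginine and lysine, was 196, 208 and 1115, 5.68-fold above endoderm and 5.35-fold above mesoderm on its only probe set. Among the other cationic carriers Slc7a1 (CAT1) was level at 187, 229 and 186, Slc7a4 was level at 111, 108 and 125, and Slc7a2 and Slc7a14 were below the floor. Slc1a3, the glutamate transporter GLAST of neural progenitors and glia, was 71.1, 63.8 and 246, at least 3.06-fold above both other layers. All 5 of its probe sets above the floor were highest in epiblast, with log2 differences of endoderm from epiblast between -1.79 and -0.37. Averaged over all its probe sets the log2 difference was still -1.01 from each of the other layers, but the averaged intensity lay below the floor in every layer, so it was then not counted. Slc38a1, a glutamine transporter, was 771, 1312 and 2047, 2.65-fold lower in endoderm than in epiblast, and its other probe set read 292, 555 and 927. Mesoderm lay between the other layers on both, 1.56-fold below epiblast on the first.

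The 22 transporters above the floor that were not 2-fold apart spanned 1.09-fold to 1.90-fold between their lowest and highest layers. Slc38a2, a stress-responsive glutamine transporter, was 2346, 3626 and 3336. The exchangers Slc1a4 and Slc1a5 were 155, 241 and 228, and 112, 154 and 186. Slc6a8, the creatine transporter, was 313, 371 and 398, and its other probe set had a different order, at 323, 384 and 239. Slc36a4 was 97.9, 167 and 99.3 and Slc43a3 was 163, 142 and 86.7. The others, each with a highest value of 85.8 to 216, were Slc1a1, Slc6a2, Slc6a9, Slc6a15, Slc6a17, Slc7a15, Slc36a2, Slc36a3 and Slc43a1. Of the 22, 7 stayed below 2 times the floor in every layer, where a 2-fold difference could not be seen above it.

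**Figure D4:**
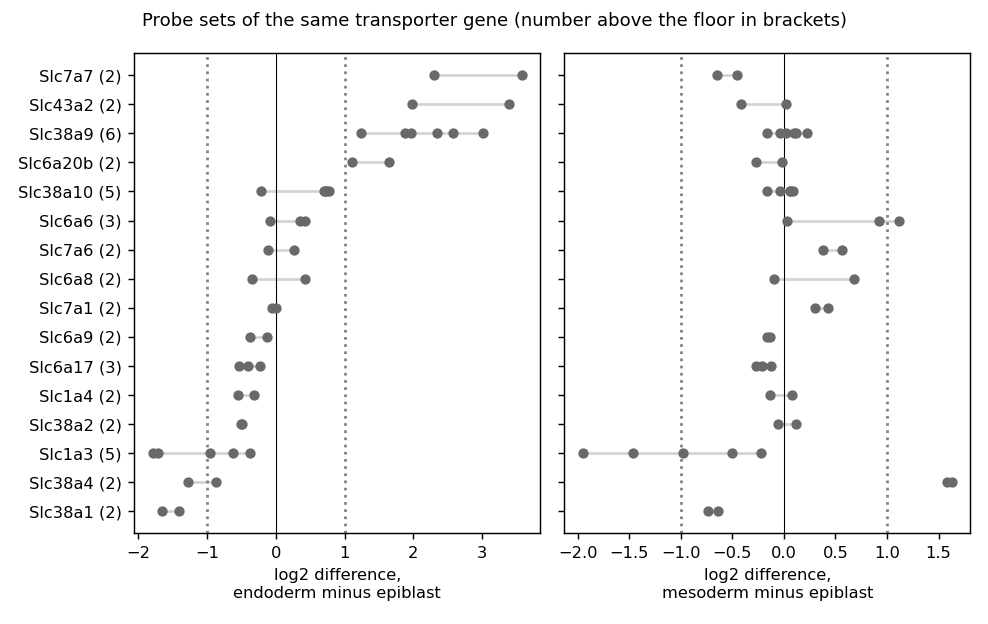
Log2 difference of endoderm minus epiblast (left) and mesoderm minus epiblast (right) for each probe set above the floor, for the 16 transporter genes with several (number in brackets), with dotted lines at 2-fold. The sets of Slc38a9, Slc43a2 and Slc7a7 lie to the right on the left panel but spread by 1.78, 1.41 and 1.28, and the sets of Slc38a4 agree at 1.58 and 1.63 on the right.

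How far probe sets of a single gene differ reflects probes and transcript ends read on the same arrays. It holds no variation between embryos, dissections or arrays and is no replicate error. That spread was 0.50 (pooled SD, log2) for endoderm minus epiblast over the 16 transporters with several sets above the floor, beside 0.40 over 5536 genes. It was 0.46 beside 0.39 for endoderm minus mesoderm and 0.34 beside 0.27 for mesoderm minus epiblast. Sets disagreed by 1 or more on the log2 scale in Slc1a3, Slc38a9, Slc43a2, Slc7a7 and, for mesoderm minus epiblast, Slc6a6. In each of these the sets above the floor pointed the same way for the pair concerned.

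Amino acid carriers outside these families were compared for context. Of 19 such genes, 13 were above the floor, with 6 higher (12.5% of all genes) and 0 lower in endoderm than in epiblast, and a median of 0.63. Against mesoderm 5 were higher (11.4% of all genes). The lists overlap: Slc16a10, among the 6, was also counted in the basolateral list, and Slc15a1 and Slc15a2 were also in the apical list. Slc66a1, which carries basic amino acids out of the lysosome, was 1665, 196 and 219. Slc17a5, the lysosomal carrier sialin, was 590, 186 and 161, and Slc25a15, the mitochondrial ornithine carrier, was 1670, 568 and 459. Ctns, the lysosomal cystine exporter, named after its values were seen, was 252, 82.7 and 72.2.

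**Figure D5:**
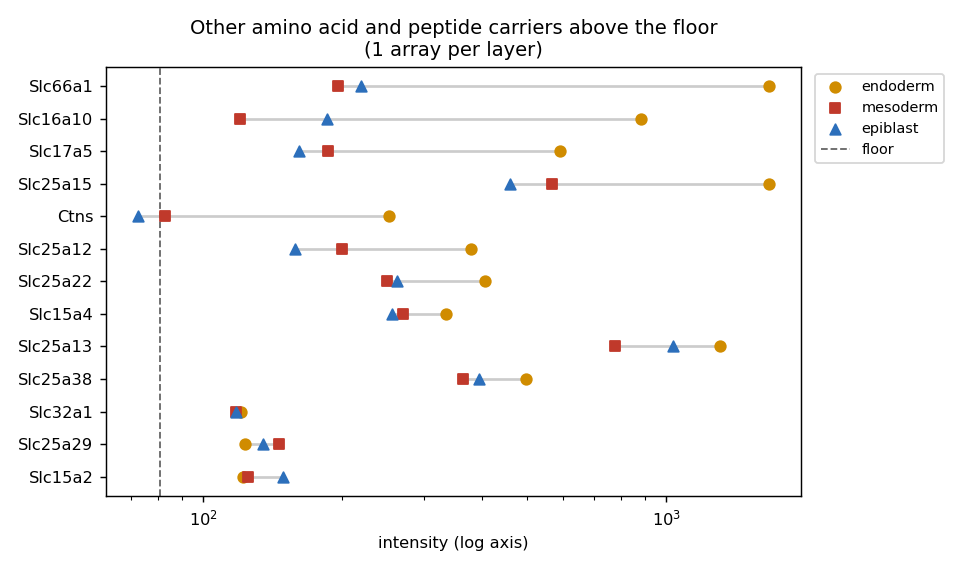
Intensity on a log axis for the 13 amino acid and peptide carriers of other families above the floor, 1 point per layer (1 array each), floor of 80.6 dashed. Endoderm is well to the right for Slc66a1, Slc16a10, Slc17a5, Slc25a15 and Ctns, while Slc32a1, Slc25a29 and Slc15a2 are level.

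For endoderm against epiblast, the list of genes that answer to amino acid shortage or make serine was near the background. Of 20 above the floor, 3 were higher and 1 lower in endoderm than in epiblast, where 12.5% and 4.01% of all genes were, with a median of 0.23. The lower gene was Mthfd2, a mitochondrial enzyme of folate metabolism, at 451, 938 and 924, and Herpud1, of the endoplasmic reticulum stress response, was higher at 726, 409 and 272. Psph, the last enzyme of serine synthesis, was 3630, 940 and 814, and Aldh18a1, an enzyme of proline synthesis, was 2878, 852 and 900. Phgdh, the first enzyme of serine synthesis, was 5014, 1591 and 2629. Atf4, the transcription factor of the response, was level at 1993, 1947 and 1784, and its target Asns was 2414, 2361 and 1478. Against mesoderm, 4 of the 20 were higher in endoderm (11.4% of all genes) and 2 were lower (3.86%). In some pair of layers 8 of the 20 were 2-fold or more apart, where 21.5% of all genes were. The list for amino acid sensing and mTORC1 includes Slc38a9. Of its 25 genes, 2 were higher and 1 was lower in endoderm than in epiblast. The GTPase genes went opposite ways, with Rragc at 1984, 676 and 537 and Rragd at 475, 1359 and 2096. Castor2 was 1077, 181 and 580, whereas Castor1 was within 2-fold at 413, 481 and 515. All 19 aminoacyl-tRNA synthetases, which load amino acids onto tRNA, were within 2-fold in every pair, with a median of 0.05 for endoderm minus epiblast. Of 9 glutathione genes, only Gss, the glutathione synthetase, was higher in endoderm than in epiblast (12.5% of all genes), by 1.07 on the log2 scale. In some pair of layers 3 of the 9 were 2-fold or more apart (21.5% of all genes). Besides Gss these were Gsr, at 970, 434 and 640, and Anpep, which was highest in mesoderm.

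The layers were checked against the study's own markers. Sox17 (4170, 116 and 51.3) and Foxa2 (3247, 47.4 and 188) were highest in endoderm, Kdr (142, 2300 and 147) and Foxf1 (216, 1098 and 298) in mesoderm and Sox2 (72.3, 130 and 3032) in epiblast, whereas Pax6, a neural marker, was highest in endoderm at 181, 92.4 and 121, within 2-fold and against the label of the epiblast sample. Pax6 has 5 probe sets, of which only the brightest was read here. By quantitative PCR the study found the markers of each layer, Pax6 included, high or exclusive in their own layer. Markers of visceral endoderm, the absorptive outer epithelium, were high in the endoderm sample. All 13 of that list were 2-fold or more higher in endoderm than in both other layers, where 8.89% of all genes were. Their summed intensities were 78353, 3309 and 2453, and none was below the floor in endoderm. Of 11 definitive endoderm markers, 8 were higher in endoderm than in epiblast (sums 28501, 2833 and 6219). Of 8 parietal endoderm markers, 6 were (15082, 6945 and 3572), beside 12.5% of all genes. Against mesoderm these counts were 9 and 3, beside 11.4% of all genes. Of the parietal markers, 5 were also higher in mesoderm than in epiblast (3.44% of all genes). Which kind of endoderm the transporter transcripts came from was not tested, and in whole tissue more cells of a type and more RNA per cell cannot be told apart. Of 7 trophoblast markers above the floor only Krt7 was higher in endoderm than in epiblast (12.5% of all genes). Elf5 and Tpbpa were below the floor (list sums 3398, 2333 and 3795). Only 1 of 6 erythroid markers (389, 353 and 359) and 2 of 8 decidual and immune markers (464, 487 and 502) were above the floor, with Hbb-bh1, Hba-x, Ptprc and Prl8a2 below it, and 0 of these 3 above it were 2-fold apart.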

How the data were processed

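The authors deposited linear intensities from Affymetrix whole-genome mouse arrays, each labelled from 100 ng of total RNA. Scans were read with the scanner maker's program, and background correction and normalization followed Robust Multiarray Average (RMA) in the affy package. RMA gives log2 values, and the sources used here do not say how the linear scale was restored. Median intensities were 79.9, 79.9 and 82.2 in endoderm, mesoderm and epiblast over 45037 probe sets. Probe sets were named from the platform annotation, 34945 with 1 symbol, 932 with several and 9160 without one, and the latter groups were left out, among them 1 set shared by Slc1a2 and another gene. Entrez identifiers found for 34741 sets altered 0 symbols. Slc38a8 and Slc38a11 are not analysed here.

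Differences between layers were taken on log2 intensities (Python 3.11.15, numpy 2.4.6, pandas 2.3.3). The methods name Significance Analysis of Microarrays, which needs replicates, so no test was run, and the number of arrays limits precision. The calling step was checked on simulated data. Transporter classes, motifs and 14 gene lists (basolateral, apical and other carriers, amino acid response, sensing, tRNA synthetases, glutathione, and markers) and the members were chosen with earlier results of these data known. Named are all transporters 2-fold or more apart, all heavy chains and their light chains, those whose probe sets disagree, and up to 4 genes per list with the largest range, the remaining transporters being summarised. Other genes named in the text were picked after their values were seen. Alternatives, with limma 3.58.1 for quantile and cyclic loess normalization, are given in the closing section.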

Additional observations from a re-analysis of the deposited data

How the results depend on the processing

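All 31 differences called in single genes kept their direction under the 10 alternatives run on them. Of these 310 values 155 were equal to the reported one to 2 decimals, among them the 62 of the alternatives that only move the floor and those of genes with a single probe set under another choice of probe sets, which could not change. Of the 155 that did change, 37 moved by more than the spread between probe sets, which is no replicate error. The genes Slc7a9, Slc7a7, Slc7a8, Slc3a2, Slc43a2, Slc38a6 and Slc38a9 were dominant in endoderm under each of the 11 alternatives. Where given, shares over all genes stand in brackets. A fold limit of 3 left 7 higher (6.05%) and 2 lower (1.42%) in endoderm against epiblast, 7 higher against mesoderm, 0 higher in mesoderm than in epiblast (1.42%), and 7 (4.08%) and 0 dominant in endoderm and mesoderm. A pseudocount of 50 left 7 higher against epiblast (9.72%), 7 against mesoderm (9.03%) and 7 dominant (6.84%), and Slc36a1, Slc38a7, Slc6a4, Slc6a13 and Slc6a20b were lost. Centring the arrays on their median left 7 higher against epiblast (8.36%) and 7 dominant (6.03%), and 3 lower against mesoderm (5.82%), with Slc1a5 and Slc36a4 gained, and moved the medians to -0.29 and -0.24. Quantile normalization gave 2 lower in endoderm than in mesoderm (4.72%). The mean of probe sets left 1 lower in mesoderm than in epiblast (2.91%) and 1 dominant in epiblast, with a median of 0.14 for endoderm minus epiblast. A floor at the 75th percentile (286) left 18 transporters, 1 lower in mesoderm (3.35%) and 1 dominant in epiblast. Their medians were 0.96 for endoderm minus epiblast and 0.96 for endoderm minus mesoderm. That floor acts on the highest layer and keeps genes bright in a single layer, so these medians are of a differently selected set of genes. Cyclic loess, the brightest probe set by mean intensity and leaving out the x_at and s_at probe sets kept the counts within 1.5 times. Of the 16 genes apart in some pair, 6 had a layer below the floor, where only a bound is known. No paired analysis was possible because each layer has 1 array.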
